A study of Mus musculus with 4 samples.

Results

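The genes described here encode the MHC class II machinery, which loads peptides from endosomes and shows them to CD4+ T cells. They are 10 genes chosen by symbol, of 47561 in the deposited tables: the class II chains H2-Aa, H2-Ab1 and H2-Eb1, the invariant chain Cd74, the DM chains H2-DMa, H2-DMb1 and H2-DMb2, the DO chains H2-Oa and H2-Ob, and the coactivator Ciita. All 10 were listed in each library and all 10 passed the filter on low values, which kept 13148 genes. RNA-seq libraries came from bone marrow LSK cells, which lack lineage antigens, express Sca-1 and c-Kit and include stem cells and multipotent progenitors. Mice were C57BL/6 and 12 weeks old in both groups. The Metrn cKO group (2 mice) carried a floxed Metrn gene together with LysM, a driver active in macrophages, monocytes and neutrophils. The Metrn f/f group (2 mice, given as wild type in the labels) carried the floxed gene alone. Sorted LSK cells are therefore not the main cells in which LysM acts. The series asked how Meteorin made by macrophages acts on these progenitors. Values are FPKM, which divide by transcript length and by the library's mapped reads, so levels of different genes can be set side by side.

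Class II molecules are heterodimers of an alpha and a beta chain that assemble on the invariant chain, which blocks the peptide groove and guides the complex to endosomes. There the invariant chain is cut down to a short peptide, H2-DM exchanges that peptide for others, and H2-DO, found mostly in B cells, holds H2-DM back. The genes share a promoter module, in which an X box bound by RFX and a Y box bound by NF-Y recruit Ciita, the coactivator that sets class II levels. B cells, dendritic cells and activated macrophages are the usual class II positive cells of the marrow. C57BL/6 mice carry a disrupted H2-Ea gene and so make no complete I-E molecule, although H2-Eb1 is intact.

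Of the 10 genes, 8 lie within one stretch of chromosome 17 (GENCODE M21 on GRCm38). H2-Oa starts the stretch at position 34092340, followed by H2-DMa (34119541), H2-DMb2 (34143307), H2-DMb1 (34153072), H2-Ob (34238903), H2-Ab1 (34257689) and H2-Aa (34282744), and H2-Eb1 ends it at position 34316674. Ciita and Cd74 lie on other chromosomes.

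Promoter sequences were searched because these genes are known for a shared promoter module. RefSeq promoter windows on GRCm38.p6, which run from 250 bases before to 50 after a start site, were found for 7 of the 10 genes (8 windows, H2-DMa having 2). The motif was GNAAC, the core of an RFX site, followed by ATTGG, the Y box, with 25 to 31 bases between, on either strand. It was present in 5 of the 7 genes, in each case on the gene's own strand, and in 1.25% of all 32851 promoter windows. ATTGG alone was present in 37.4% of all windows and GNAAC alone in 84.8%. The windows of H2-DMa and H2-DMb2 did not hold the pair. The sequences upstream of H2-Aa and H2-Ob are shown up to the start site because these nearby genes differed widely in how their levels varied between mice, and the part around the Y box is shown for 4 more genes. Capitals mark GNAAC and ATTGG, or ATTGG alone in H2-DMb2.
H2-Aa (chr17:34287824-34288073, minus strand): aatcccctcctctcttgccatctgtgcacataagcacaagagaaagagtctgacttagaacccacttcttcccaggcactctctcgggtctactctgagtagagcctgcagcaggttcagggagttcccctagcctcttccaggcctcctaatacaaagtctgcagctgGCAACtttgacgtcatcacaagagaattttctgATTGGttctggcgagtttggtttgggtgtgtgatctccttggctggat
H2-Ob (chr17:34238655-34238904, plus strand): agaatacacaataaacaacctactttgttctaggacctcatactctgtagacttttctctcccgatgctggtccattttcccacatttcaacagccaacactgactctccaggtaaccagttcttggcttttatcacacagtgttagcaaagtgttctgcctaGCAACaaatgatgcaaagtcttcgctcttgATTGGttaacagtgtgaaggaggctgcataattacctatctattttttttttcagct
H2-Eb1 (chr17:34305751-34305827, plus strand): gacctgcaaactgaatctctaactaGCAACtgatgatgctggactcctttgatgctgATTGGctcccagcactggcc
H2-DMb1 (chr17:34153072-34153149, plus strand): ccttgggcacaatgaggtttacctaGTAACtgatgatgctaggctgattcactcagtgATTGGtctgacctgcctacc
H2-DMb2 (chr17:34145101-34145178, plus strand): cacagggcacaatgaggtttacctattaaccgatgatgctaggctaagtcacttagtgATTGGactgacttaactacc
H2-Oa (chr17:34092278-34092355, plus strand): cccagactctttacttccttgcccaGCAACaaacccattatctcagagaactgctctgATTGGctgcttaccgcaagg
The spacing between the parts of the pair was 28 bases in H2-Aa, H2-DMb1 and H2-Oa, 27 in H2-Eb1 and 25 in H2-Ob. The Y box ended 43 bases before the start site in H2-Aa, 54 in H2-Eb1, 56 in H2-DMb1, 38 in H2-Oa and 52 in H2-Ob. Non-class II genes in or near the stretch served for comparison, and 0 of the 6 with a window (Brd2, Psmb8, Psmb9, Tap1, Tapbp and Btnl2) held the pair. H2-Eb2, a further class II beta chain gene, held it with a spacing of 27 bases.

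The libraries did not divide by genotype. Metrn, the targeted gene, had 42.3 and 36.7 FPKM in Metrn cKO, against 29.3 and 66.3 FPKM in Metrn f/f. The genotypes overlapped for it. The level of the whole Metrn gene in LSK cells did not serve as a check of the labels. LysM acts mainly in other cells, and the deleted part is not given in the sources used here. Transcripts of Lyz2, the gene of LysM, were present in all libraries, however. Lyz2 had 2904 and 245 FPKM in Metrn cKO, against 290 and 2406 FPKM in Metrn f/f. Whether Metrn was deleted in the sequenced cells was not tested. FPKM values summed to 562401 and 412955 in the libraries of Metrn cKO and to 392717 and 671802 in those of Metrn f/f, and read depth was unknown. The sort marker gene Kit had 25.9 and 116 FPKM in Metrn cKO, against 108 and 24.8 FPKM in Metrn f/f. Ly6a, which encodes Sca-1, had 48.4 and 38.2 FPKM in Metrn cKO, against 37.2 and 83.2 FPKM in Metrn f/f. Of the antigens that the lineage panel of such a sort removes, 9 of 10 were listed, with a summed level of 1183 and 394 FPKM in Metrn cKO and 457 and 1042 FPKM in Metrn f/f, and Cd3e was at 0 in Metrn cKO 2. Transcripts of this panel were thus present in all libraries of a lineage-negative fraction. The sums were highest in Metrn cKO 1 and Metrn f/f 2. Ly6c2 was the largest part of each sum, with 944 and 309 FPKM in Metrn cKO and 363 and 869 FPKM in Metrn f/f. Ptprc ran the other way, with 42.6 and 54.9 FPKM in Metrn cKO and 55.4 and 30.4 FPKM in Metrn f/f. It encodes all forms of CD45, which LSK cells also carry, while such a panel targets the B220 form alone. Values per gene do not separate these forms, so Ptprc does not report on the lineage antigen. Between Metrn cKO 2 and Metrn f/f 1, 0.745% of genes tested were at least 2-fold higher and 0.616% at least 2-fold lower. All log2 differences and 2-fold counts here use the log2(FPKM + 1) scale unless said otherwise. Other fold values are ratios of FPKM. The labels name no batch.

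Class II chains and the invariant chain were abundant in 1 mouse of each genotype and 5.92-fold to 13.5-fold lower in the other. Cd74, H2-Aa, H2-Ab1 and H2-Eb1 together took 0.425% and 0.0646% of all FPKM in Metrn cKO 1 and 2, against 0.0894% and 0.404% in Metrn f/f 1 and 2. In bulk RNA, fewer cells of a type and less RNA per cell cannot be told apart. Cd74 (chromosome 18, positions 60803848 to 60812652) had 1009 and 113 FPKM in Metrn cKO 1 and 2, against 161 and 955 FPKM in Metrn f/f 1 and 2. It was the most abundant of the 10 genes in every library, ranking 84th and 477th among all genes in Metrn cKO and 296th and 119th in Metrn f/f. H2-Ab1, the beta chain of I-A, had 572 and 72.4 FPKM in Metrn cKO, against 90.7 and 696 FPKM in Metrn f/f. H2-Aa, its alpha chain, had 465 and 55.8 FPKM in Metrn cKO, against 62.7 and 640 FPKM in Metrn f/f. For both chains, Metrn cKO 1 and Metrn f/f 2 were high, Metrn cKO 2 and Metrn f/f 1 were low, and the genotypes overlapped. H2-Eb1, the beta chain of I-E, had 342 and 25.3 FPKM in Metrn cKO, against 36.3 and 425 FPKM in Metrn f/f. It had the widest range of the 10 genes, 13.5-fold between Metrn cKO 1 and Metrn cKO 2 and 11.7-fold between Metrn f/f 2 and Metrn f/f 1. The order Cd74, H2-Ab1, H2-Aa, H2-Eb1 was the same in all 4 libraries. Among the chains outside the 10 genes, H2-Eb2 had 1.14 and 0.0969 FPKM in Metrn cKO and 0.0701 and 0.281 FPKM in Metrn f/f, below the filter, and H2-Ea was listed at 0 in every library.

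**Figure D1:**
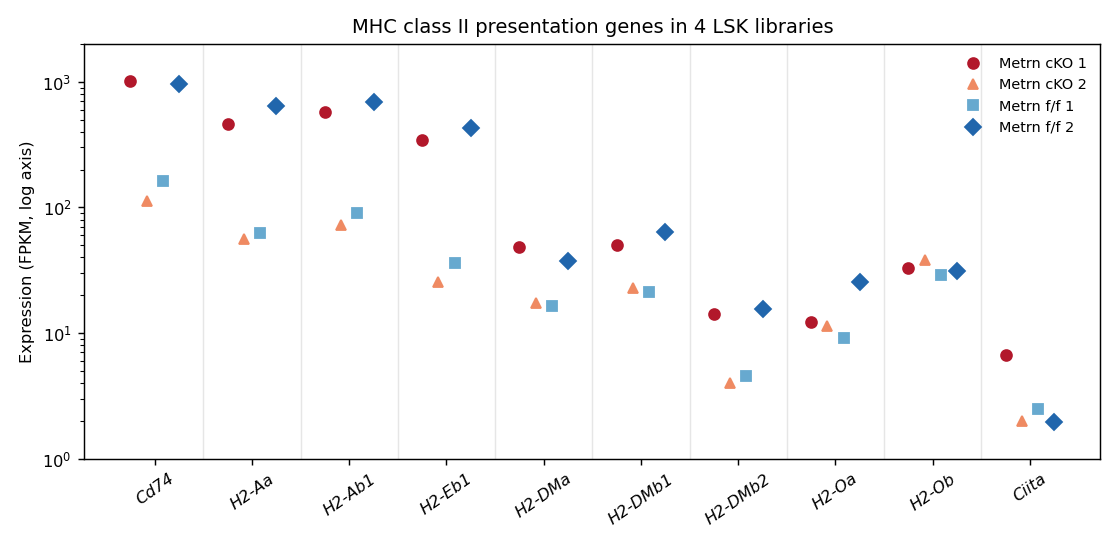
Expression of the 10 class II genes in each library in FPKM on a log axis, with 1 point per mouse and Metrn cKO left of Metrn f/f. For Cd74 and the class II chains, Metrn cKO 1 and Metrn f/f 2 lie far above Metrn cKO 2 and Metrn f/f 1, while the points of H2-Ob lie between 29.0 and 38.4 FPKM.

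The DM genes followed the same order of libraries over a smaller range. H2-DMa, the alpha chain, had 48.8 and 17.4 FPKM in Metrn cKO, against 16.3 and 37.3 FPKM in Metrn f/f. H2-DMb1 had 50.6 and 23.0 FPKM in Metrn cKO, against 21.1 and 63.9 FPKM in Metrn f/f. H2-DMb2, a second beta chain gene beside it, had 14.1 and 3.98 FPKM in Metrn cKO, against 4.52 and 15.4 FPKM in Metrn f/f. Groups overlapped for all 3 genes, and the difference between mice of 1 genotype was 2.20-fold to 3.54-fold. H2-DMb1 and H2-DMb2 are near-copies: 22.7% of the 50-base windows in H2-DMb1 transcripts and 24.8% of those in H2-DMb2 transcripts also occurred in another gene, for H2-DMb1 always H2-DMb2. Their split is uncertain where the counting divided or dropped shared reads. H2-DMa shares 10.4% of its exonic bases with Brd2 on the other strand, and the strand setting is not given in the sources used here. Brd2 ran the other way, with 79.0 and 90.6 FPKM in Metrn cKO and 90.7 and 45.3 FPKM in Metrn f/f.

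The DO genes and Ciita departed from this order. H2-Ob, the DO beta chain, was nearly level, with 32.9 and 38.4 FPKM in Metrn cKO, against 29.0 and 31.1 FPKM in Metrn f/f. Of the 10 genes, 1, H2-Ob, was higher in each Metrn cKO mouse than in either Metrn f/f mouse, against 6.31% of all genes tested, so 1 in 10 is near the background. The order was lost when libraries were rescaled to equal sums or centred on the median of tested genes (0 of 10 genes in both). H2-Oa, the DO alpha chain, had 12.2 and 11.5 FPKM in Metrn cKO, against 9.15 and 25.3 FPKM in Metrn f/f. It stood high in Metrn f/f 2 alone, and 22.8% of its exonic bases are shared with the antisense gene BC051537, which stayed below 1 FPKM in all libraries. Ciita (chromosome 16, positions 10480059 to 10528418) had 6.62 and 1.99 FPKM in Metrn cKO, against 2.50 and 1.97 FPKM in Metrn f/f, the lowest level of the 10 genes in every library. It was high in Metrn cKO 1 alone. In Metrn f/f 2, where the class II chains were as abundant as in Metrn cKO 1 or more so, Ciita was as low as in Metrn cKO 2. The ratio of Cd74 to Ciita was 152 and 56.8 in Metrn cKO, against 64.5 and 484 in Metrn f/f.

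Within the genotypes, 8 of the 10 genes were at least 2-fold higher in Metrn cKO 1 than in Metrn cKO 2, against 6.72% of all genes tested, and 8 of 10 were so in Metrn f/f 2 over Metrn f/f 1, against 13.7%. H2-Oa and H2-Ob were the exceptions in Metrn cKO, and H2-Ob and Ciita were those in Metrn f/f. None of the 10 was at least 2-fold lower in either pair, against 12.4% and 21.9% of all genes tested. The 4 most variable genes, Cd74 and the 3 chains, had log2 differences of 2.97 to 3.71 in Metrn cKO and 2.56 to 3.51 in Metrn f/f. From 96 to 206 of the 13148 genes tested had larger ones than these 4 genes. The DM genes had differences of 1.10 to 1.60 in Metrn cKO and 1.14 to 1.57 in Metrn f/f. In Metrn cKO the difference was 0.08 for H2-Oa, -0.22 for H2-Ob and 1.35 for Ciita, and in Metrn f/f it was 1.37, 0.10 and -0.24 for the same genes. The median over all genes tested was -0.24 in Metrn cKO and -0.23 in Metrn f/f. Library totals bear on these counts: with values rescaled to equal sums, 7 of 10 genes passed in Metrn cKO and 4 of 10, Cd74 and the 3 chains, in Metrn f/f, and the medians over all genes moved to -0.68 and -0.95. Rescaling also turned the small differences of H2-Oa in Metrn cKO (-0.34) and H2-Ob in Metrn f/f (-0.66) to negative, and median centring turned that of Ciita in Metrn f/f to 0.13 and that of H2-Ob in Metrn cKO to 0.06.

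**Figure D2:**
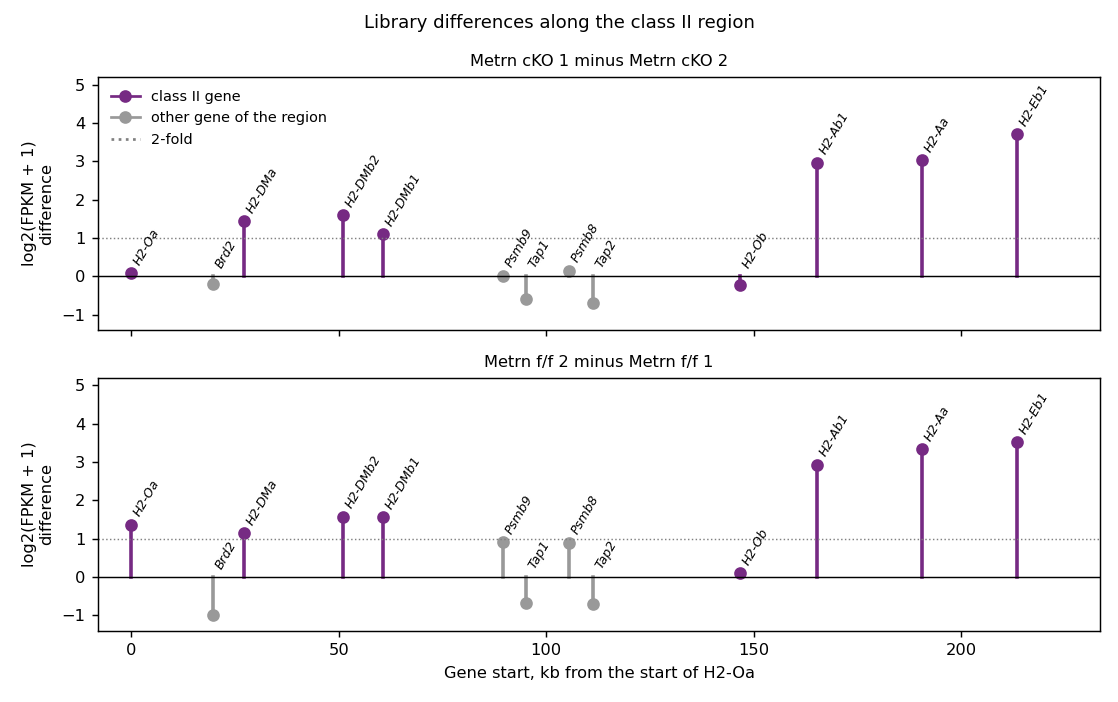
Difference in log2(FPKM + 1) between the 2 mice of each genotype, for genes of the class II stretch by the distance of their start from that of H2-Oa in kb, with class II genes in purple and others in grey. H2-Ab1, H2-Aa and H2-Eb1 at one end differ by 2.93 to 3.71, while the adjacent H2-Ob and the proteasome and transporter genes between the class II genes stay below the 2-fold line.

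Genes in or near the stretch that serve other functions did not share the range of the chains. Psmb8 and Psmb9, immunoproteasome subunits, had 191 and 172 FPKM and 141 and 139 FPKM in Metrn cKO, against 161 and 301 FPKM and 121 and 228 FPKM in Metrn f/f. Tap1 and Tap2, the peptide transporter of class I presentation, had 58.7 and 88.9 FPKM and 76.3 and 123 FPKM in Metrn cKO, against 87.7 and 54.5 FPKM and 121 and 73.7 FPKM in Metrn f/f. Tap1 and Tap2 were thus lower where the class II chains were higher (Tap1 was chosen after its values were seen). Of the 6 neighbours tested, which include Tapbp outside the stretch, 0 differed by at least 2-fold in either direction between mice of 1 genotype. Among all genes tested, 6.72% rose and 12.4% fell that far from Metrn cKO 2 to Metrn cKO 1. From Metrn f/f 1 to Metrn f/f 2 the shares were 13.7% and 21.9%. No test set 0 of 6 against these shares. In Metrn f/f, Psmb8 (0.89), Psmb9 (0.91) and Brd2 (-0.99) came near the threshold. For Brd2 the count rested on the added 1, since its FPKM ratio was 0.499. The median differences of the 6 neighbours were -0.17 in Metrn cKO and -0.50 in Metrn f/f, against 1.52 and 1.57 for the 10 class II genes.

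Ratios within a library do not depend on library totals and show which genes kept step. H2-Aa per H2-Ab1 was 0.812 and 0.771 in Metrn cKO, against 0.691 and 0.920 in Metrn f/f, so the partner chains of I-A stayed close to each other. Cd74 per H2-Ab1 was 1.76 and 1.56 in Metrn cKO, against 1.78 and 1.37 in Metrn f/f. H2-Eb1 per H2-Ab1 was 0.598 and 0.350 in Metrn cKO, against 0.401 and 0.612 in Metrn f/f. The accessory genes did not keep step with the chains. H2-DMb1 per H2-Ab1 was 0.0884 and 0.318 in Metrn cKO, against 0.232 and 0.0919 in Metrn f/f. H2-Ob per H2-DMb1, a DO to DM ratio of beta chain transcripts, was 0.650 and 1.67 in Metrn cKO, against 1.38 and 0.486 in Metrn f/f. H2-Oa per H2-DMa, the same for alpha chains, was 0.249 and 0.658 in Metrn cKO, against 0.561 and 0.678 in Metrn f/f. Both DO to DM ratios were low in Metrn cKO 1, and in Metrn f/f 2 the beta chain ratio alone was low. H2-Ob exceeded H2-Oa 2.71-fold and 3.36-fold in Metrn cKO and 3.16-fold and 1.23-fold in Metrn f/f.

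**Figure D3:**
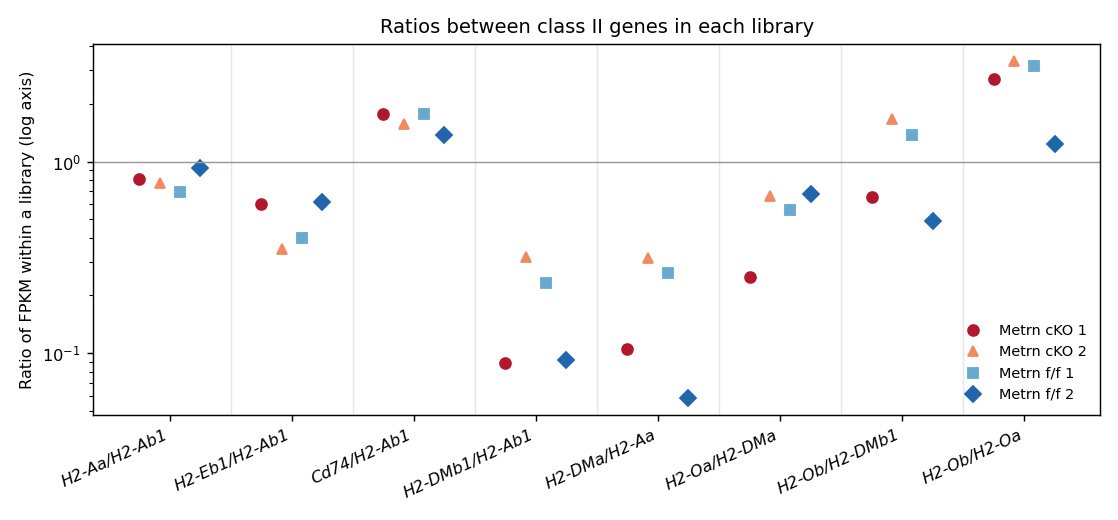
Ratios of FPKM between pairs of class II genes within each library on a log axis, with Metrn cKO left of Metrn f/f. The ratios H2-Aa/H2-Ab1 and Cd74/H2-Ab1 vary little, whereas H2-DMb1/H2-Ab1 and H2-Ob/H2-DMb1 are lower in Metrn cKO 1 and Metrn f/f 2 than in Metrn cKO 2 and Metrn f/f 1.

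No class II gene passed the genotype comparison. In a limma fit over all genes tested, 0 of 10 were higher and 0 of 10 lower in Metrn cKO at an adjusted p of 0.05, as were 0% of all genes in each direction. At an unadjusted p under 0.05 there were 0 of 10, against 0.297% of all genes. Each Metrn cKO mouse was lower than either Metrn f/f mouse in 0 of 10, against 5.73% of all genes. Cd74 averaged 561 ± 633 FPKM in Metrn cKO and 558 ± 561 FPKM in Metrn f/f (SD, n = 2 each), and its log2 fold change was -0.21 (SE 1.23). H2-Ab1 averaged 322 ± 354 FPKM in Metrn cKO and 393 ± 428 FPKM in Metrn f/f, with a log2 fold change of -0.30 (SE 1.24). These SDs exceeded the means, so differences between mice of 1 genotype were far larger than those between genotypes. The log2 fold change was -0.31 (SE 1.32) for H2-Aa and -0.41 (SE 1.47) for H2-Eb1. It was 0.23 (SE 0.63) for H2-DMa, -0.10 (SE 0.65) for H2-DMb1 and -0.13 (SE 0.78) for H2-DMb2. H2-Oa averaged 11.8 ± 0.505 FPKM in Metrn cKO and 17.2 ± 11.4 FPKM in Metrn f/f, with a log2 fold change of -0.35 (SE 0.57). H2-Ob averaged 35.7 ± 3.89 FPKM in Metrn cKO and 30.0 ± 1.49 FPKM in Metrn f/f, with a log2 fold change of 0.24 (SE 0.38), the smallest standard error of the 10 genes. Ciita averaged 4.31 ± 3.28 FPKM in Metrn cKO and 2.23 ± 0.373 FPKM in Metrn f/f, with a log2 fold change of 0.57 (SE 0.64). Unadjusted p ranged from 0.406 for Ciita to 0.877 for H2-DMb1. With standard errors above 1 for the chains, large changes in either direction were not detectable with 2 mice a group. The median log2 fold change was -0.17 over the 10 genes and 0.07 over all genes tested. It was -0.80 without Metrn cKO 1, 1.07 without Metrn cKO 2, 0.74 without Metrn f/f 2 and -0.98 without Metrn f/f 1.

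**Figure D4:**
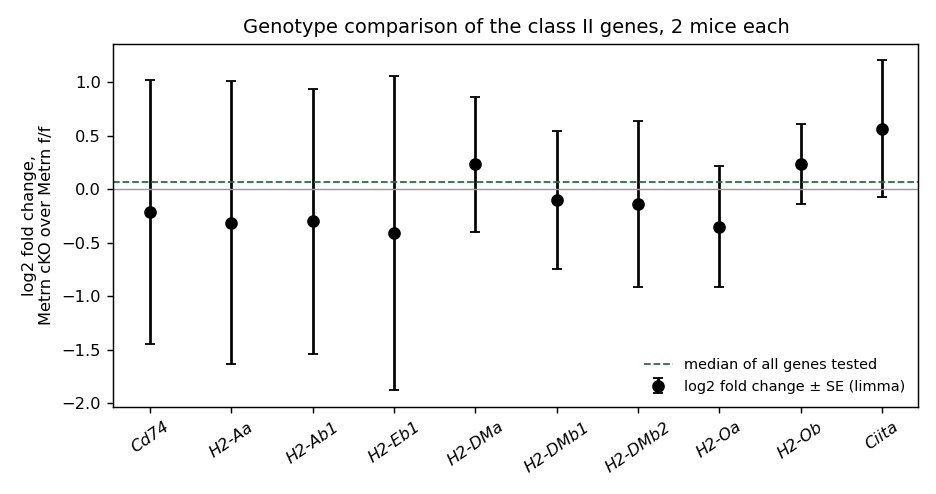
Log2 fold change of Metrn cKO over Metrn f/f for each class II gene with its standard error from limma, on the log2(FPKM + 1) scale, and the median of all genes tested as a dashed line. The values lie between -0.41 and 0.57, and the errors of Cd74 and the class II chains exceed 1.2.

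For the class II chains, some libraries of different genotype were closer than mice of the same genotype. Metrn cKO 2 lay close to Metrn f/f 1, with log2 differences of -0.51 for Cd74, -0.16 for H2-Aa, -0.32 for H2-Ab1 and -0.50 for H2-Eb1, and at most 0.40 in size for the other 6 genes. Metrn cKO 1 lay close to Metrn f/f 2, with log2 differences of 0.08 for Cd74, -0.46 for H2-Aa, -0.28 for H2-Ab1 and -0.31 for H2-Eb1. In this pair Ciita was the exception at 1.36, and H2-Oa differed by -0.996. At least a 2-fold higher level was seen in 1 of 10 genes for Metrn cKO 1 over Metrn f/f 2, against 7.09% of all genes tested, and in 0 of 10 for Metrn cKO 2 over Metrn f/f 1. On the log2(FPKM + 1) scale none of the 10 was at least 2-fold lower in either pair, against 6.33% of all genes tested for Metrn cKO 1 over Metrn f/f 2. For H2-Oa this rested on the added 1, since with 0.1 added in its place the difference in this pair was -1.05.

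As a list, genes for factors that act on class II promoters did not follow the order of the chains. Of 10 such genes, 0 passed the genotype test. In Metrn cKO 1 over Metrn cKO 2, 0 were at least 2-fold higher, against 6.72% of all genes tested. In Metrn f/f 2 over Metrn f/f 1, 0 were so, against 13.7%, and 6 were at least 2-fold lower, against 21.9%. In the same pair the log2 differences of Ep300 and Crebbp were -2.67 and -2.86 (both chosen after their values were seen). The NF-Y subunit genes Nfya and Nfyc had 44.9 and 61.8 FPKM and 25.2 and 19.6 FPKM in Metrn cKO, against 63.1 and 29.0 FPKM and 20.8 and 24.2 FPKM in Metrn f/f. Nfyb, the remaining subunit, had 20.8 and 14.8 FPKM in Metrn cKO, against 13.6 and 16.2 FPKM in Metrn f/f. Creb1, whose product binds beside the X box, had 10.4 and 16.7 FPKM in Metrn cKO, against 17.7 and 6.24 FPKM in Metrn f/f. RFX5, the DNA-binding RFX subunit, is needed for class II transcription, and Rfx5 had 8.32 and 11.3 FPKM in Metrn cKO, against 17.0 and 6.09 FPKM in Metrn f/f. Rfxap, the gene of another RFX subunit, had 9.54 and 9.70 FPKM in Metrn cKO, against 6.81 and 14.3 FPKM in Metrn f/f. It was thus higher in Metrn f/f 2 than in Metrn f/f 1, as the chains were, and nearly level in Metrn cKO, while Rfx5 ran the other way (both chosen after their values were seen). The interferon gamma pathway, which induces Ciita in many cells, had 0 of 15 tested genes passing and a median log2 fold change of 0.18. Its most abundant members, the receptor gene Ifngr1 and the factor gene Irf1, had 75.4 and 70.4 FPKM and 45.2 and 56.8 FPKM in Metrn cKO, against 79.3 and 76.5 FPKM and 51.8 and 56.2 FPKM in Metrn f/f. The kinase gene Jak1 had 32.4 and 50.8 FPKM in Metrn cKO and 50.8 and 20.8 FPKM in Metrn f/f.

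Genes listed for class II antigen processing varied with the chains in part. The list holds genes that prepare endosomal peptides, and also genes for tetraspanins, ubiquitin ligases and a metal transporter. Of its 15 genes, 0 passed the genotype test (median log2 fold change -0.28). In Metrn cKO 1 over Metrn cKO 2, 6 were at least 2-fold higher, against 6.72% of all genes tested. In Metrn f/f 2 over Metrn f/f 1, 10 were so, against 13.7%. The most abundant were Cd63, a tetraspanin of late endosomes, the aspartic protease gene Ctsd, the tetraspanin gene Cd37 and the protease gene Ctsz. Cd63 had 259 and 129 FPKM in Metrn cKO, against 122 and 342 FPKM in Metrn f/f. Ctsd had 145 and 129 FPKM in Metrn cKO, against 127 and 362 FPKM in Metrn f/f. Ctsd was high in Metrn f/f 2 alone. Cd37 had 172 and 143 FPKM in Metrn cKO, against 118 and 164 FPKM in Metrn f/f, and Ctsz had 105 and 75.9 FPKM in Metrn cKO, against 69.5 and 160 FPKM in Metrn f/f. Ctss, the protease that trims the invariant chain in most class II positive cells, had 97.1 and 30.2 FPKM in Metrn cKO, against 24.3 and 186 FPKM in Metrn f/f. Ifi30, a reductase that opens disulfides of antigens, had 41.8 and 8.91 FPKM in Metrn cKO, against 11.1 and 73.3 FPKM in Metrn f/f. Ctss and Ifi30, chosen after their values were seen, shared the order of the chains but stood higher in Metrn f/f 2 than in Metrn cKO 1. Genes listed for co-stimulation, which include Icam1 and Cd274, were low. Of 8 listed, 7 were tested and 0 passed. The 8 summed to 37.9 and 36.0 FPKM in Metrn cKO and 33.3 and 36.0 FPKM in Metrn f/f. These near-level sums covered moves in both directions. From Metrn cKO 2 to Metrn cKO 1, 2 of the 7 rose 2-fold or more and 2 fell as far. Among all genes tested, 6.72% rose and 12.4% fell so. From Metrn f/f 1 to Metrn f/f 2, 1 of the 7 rose and 1 fell as far, against 13.7% and 21.9%. Icam1, the adhesion ligand, had 13.7 and 17.3 FPKM in Metrn cKO, against 14.0 and 16.0 FPKM in Metrn f/f. Cd274, which encodes PD-L1, had 2.25 and 8.99 FPKM in Metrn cKO, against 9.49 and 3.41 FPKM in Metrn f/f. Icosl had 8.24 and 4.69 FPKM in Metrn cKO and 5.30 and 4.14 FPKM in Metrn f/f, and Cd86 had 4.17 and 2.26 FPKM in Metrn cKO and 1.92 and 4.36 FPKM in Metrn f/f.

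Markers of cells that present antigen moved with the class II genes, and their part in the result was not tested. The B lineage list (13 genes) summed to 476 and 74.4 FPKM in Metrn cKO and 72.6 and 331 FPKM in Metrn f/f. Cd79a, the B cell receptor signalling chain, had 200 and 14.8 FPKM in Metrn cKO, against 14.9 and 129 FPKM in Metrn f/f. Of the 12 tested genes of the list, 11 were at least 2-fold higher in Metrn cKO 1 than in Metrn cKO 2 and 9 in Metrn f/f 2 than in Metrn f/f 1. The shares of all genes tested were 6.72% and 13.7% for these pairs, which also hold for the macrophage counts below. Ms4a1 and Cr2 were at 0 in Metrn cKO 2. Pax5 and Ebf1, the transcription factor genes of early B cells, had 8.09 and 1.50 FPKM and 9.30 and 1.13 FPKM in Metrn cKO, against 1.38 and 1.51 FPKM and 0.870 and 1.88 FPKM in Metrn f/f (chosen after their values were seen). Like Ciita, they were high in Metrn cKO 1 alone. The macrophage list (13 genes) summed to 251 and 84.6 FPKM in Metrn cKO and 70.4 and 1207 FPKM in Metrn f/f. Its 12 tested genes were all at least 2-fold higher in Metrn f/f 2 than in Metrn f/f 1, and 7 were so in Metrn cKO 1 over Metrn cKO 2, with C1qb, a complement chain, at 48.4 and 8.54 FPKM in Metrn cKO and 8.01 and 297 FPKM in Metrn f/f. Metrn cKO 1 thus had lower levels of macrophage genes than the library Metrn f/f 2. The difference was at least 2-fold in 10 of the 12, against 6.33% of all genes tested.

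Dendritic cell genes moved with the class II genes in part. Conventional dendritic cell genes (12 listed) summed to 285 and 262 FPKM in Metrn cKO and 235 and 176 FPKM in Metrn f/f, a sum in which the progenitor gene Flt3 is the largest part in Metrn cKO 2 and Metrn f/f 1. Of the 10 tested, 7 were at least 2-fold higher in Metrn cKO 1 than in Metrn cKO 2 and 4 in Metrn f/f 2 than in Metrn f/f 1. The shares of all genes tested were 6.72% and 13.7%. In each pair 1 of the 10 was at least 2-fold lower, against 12.4% and 21.9%. Cd209a, a lectin of monocyte-derived and type 2 dendritic cells, had 11.8 and 0.273 FPKM in Metrn cKO, against 0.375 and 7.56 FPKM in Metrn f/f (chosen after its values were seen). Its differences were the widest of this list in both pairs. Irf8 had 107 and 50.1 FPKM in Metrn cKO but was level in Metrn f/f, with 54.3 and 53.0 FPKM. Plasmacytoid dendritic cell genes (9 listed) summed to 294 and 154 FPKM in Metrn cKO and 130 and 334 FPKM in Metrn f/f, and Klk1 was at 0 in Metrn cKO 2. Of the 8 tested, 4 were at least 2-fold higher in Metrn cKO 1 than in Metrn cKO 2 and 5 in Metrn f/f 2 than in Metrn f/f 1. In each pair 2 were at least 2-fold lower, against 12.4% and 21.9% of all genes tested. Monocyte genes (9 listed) summed to 3964 and 620 FPKM in Metrn cKO and 729 and 3395 FPKM in Metrn f/f, and neutrophil genes (10 listed) summed to 55599 and 1905 FPKM in Metrn cKO and 2449 and 30992 FPKM in Metrn f/f. Erythroid genes (10 listed), of cells that carry no class II, shared the order too, with sums of 23921 and 2489 FPKM in Metrn cKO and 3068 and 29492 FPKM in Metrn f/f. The sort markers (8 listed) ran the other way, with sums of 341 and 771 FPKM in Metrn cKO and 670 and 473 FPKM in Metrn f/f.

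**Figure D5:**
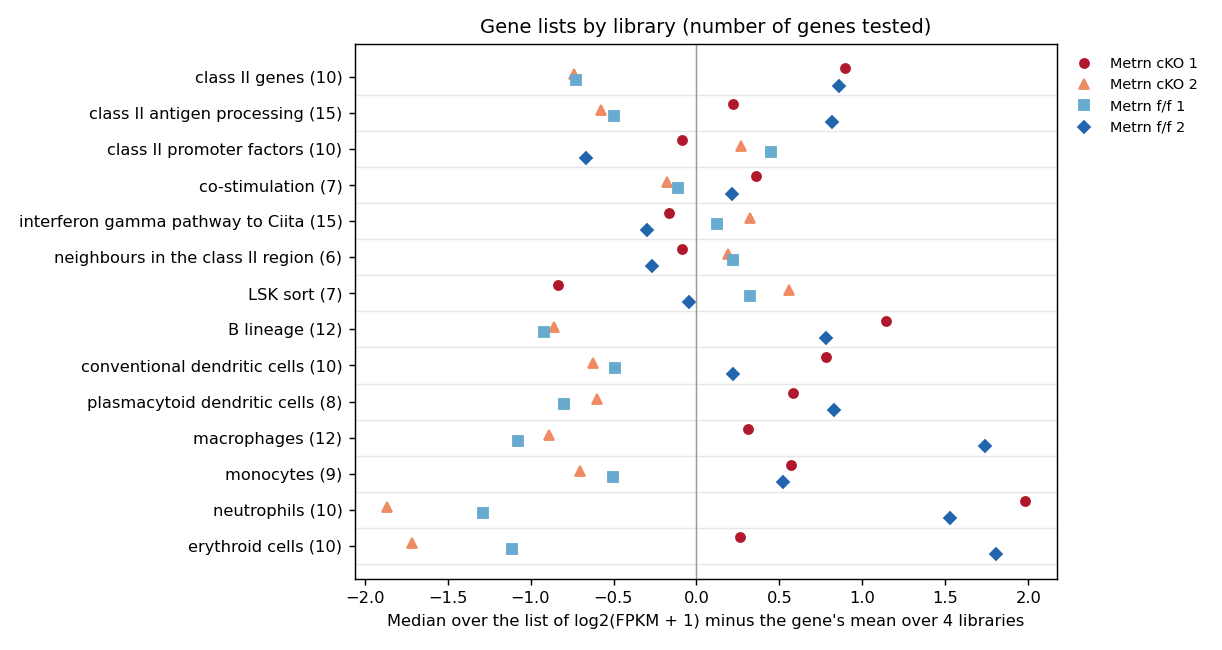
Median level of each gene list in each library, as log2(FPKM + 1) minus each gene's mean over the 4 libraries, with the number of genes tested in parentheses. Class II genes stand at 0.90 and -0.74 in Metrn cKO 1 and 2 and at -0.72 and 0.86 in Metrn f/f 1 and 2, in the order of the B lineage and macrophage lists and against that of the sort markers.

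The order of libraries was not particular to class II genes. Likeness was measured as the mean absolute difference between a gene's centred log2 profile over the 4 libraries and that of the median class II gene. The 10 nearest genes lay within 0.11 log2 units and held Sem1, Arhgdib, Pirb, Cd9, Ly6c1, mt-Rnr1, Ndufa1, Hint3, Dhrs7 and S100a11. Arhgdib had 1238 and 425 FPKM in Metrn cKO, against 408 and 1100 FPKM in Metrn f/f. Pirb, an inhibitory receptor of myeloid and B cells, had 25.4 and 6.49 FPKM in Metrn cKO, against 7.24 and 21.8 FPKM in Metrn f/f. The tetraspanin gene Cd9 had 99.4 and 27.5 FPKM in Metrn cKO, against 28.4 and 89.6 FPKM in Metrn f/f. These genes follow the moderate range of the median class II gene. Measured against the profile of Cd74, whose range was wider, the 10 nearest genes shared 0 with that set and included Pilrb1, Ifitm6, Id3, Ctsh and Ly6g.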

How the data were processed

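Total RNA of sorted LSK cells from 4 mice was extracted with TRIZOL and treated with DNase I, per the labels' protocols. Build mm10 and the tools HISAT2 2.1, DESeq2 2.11.40.6, featureCounts 1.6.4, bcl2fastq 2.19 and cutadapt 1.16.5 appear, without roles, in the submitters' processing notes. The authors deposited 1 table per library, taken as FPKM because the values had decimals and summed to different totals. Read depth is unknown, so no counting error was computed.

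Genes that reached 1 FPKM in 2 or more libraries were fitted as log2(FPKM + 1) by limma 3.58.1 (R 4.3.3) with an intensity trend, 2-sided, with Benjamini-Hochberg adjustment over all genes tested and a threshold of 0.05; the fit was tested on simulated data. Fold changes understate those of low genes. The genes, gene lists and tests were chosen with earlier results of these data known. Named genes are the 10 class II genes, up to 4 of each list with the highest mean, and the 10 nearest in profile (mean of at least 4 FPKM; predicted, RIKEN, microRNA and receptor segment names left out); a gene that this rule names is not reported here. Genes named outside the rule check the sort or the targeted gene, are at 0, are near the Cd74 profile or in a region or motif search, or are marked where named. Alternatives were another pseudocount, no filter, 2 rescalings, no trend, each library left out and replicate blocks. Coordinates are from GENCODE M21, promoters from RefSeq (GRCm38.p6).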

Additional observations from a re-analysis of the deposited data

How the results depend on the processing

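With 2 mice a group and unknown depth, only differences far larger than the spread between mice could pass. No class II gene was called under any alternative. The count of genes called over the whole table, 0 in the reported fit, ranged from 0 to 34 with each library left out: it was 5 without Metrn cKO 1 and 34 without Metrn cKO 2. The replicate numbers were not shown to pair the mice: with the replicate block 4 genes were called, and same-numbered mice deviated from their group means with a correlation of -0.71 over 13148 genes. A crossed block, chosen after seeing the data, called 102 genes (37 higher and 65 lower). The median log2 fold change of the 10 genes ranged from -0.98 to 1.07 with each library left out, and median centring moved the median over all genes to -0.04. Direction turned with a library left out in 9 of the 10 genes. The ranges were -1.79 to 1.36 for Cd74, -1.98 to 1.35 for H2-Aa, -1.78 to 1.18 for H2-Ab1, -2.26 to 1.44 for H2-Eb1, -0.48 to 0.95 for H2-DMa, -0.88 to 0.67 for H2-DMb1, -0.93 to 0.67 for H2-DMb2, -1.04 to 0.33 for H2-Oa and -0.11 to 1.24 for Ciita, against 0.13 to 0.35 for H2-Ob. Rescaling to equal sums left 4 of 10 genes at least 2-fold higher in Metrn f/f 2 than in Metrn f/f 1, and 0 that were higher in each Metrn cKO mouse than in either Metrn f/f mouse, as did median centring (0). The nearest genes by the Cd74 profile shared 0 with those of the median class II gene. The cause of these changes was not tested.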
